A study of Mus musculus with 6 samples.

Results

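Tox, Tox2, Nr4a1, Nr4a2, Nr4a3, Nfatc1, Batf, Irf4 and Prdm1 are transcription factors that T cells use after signals through the antigen receptor. These 9 genes were chosen by symbol from the 32227 genes counted, and all 9 were found. The choice was made with earlier results of these data known. They were measured by single-cell RNA sequencing (PIPseq v3, in which each RNA molecule carries a unique molecular identifier, UMI) in CD8+ T cells of thymus, spleen and B16-OVA tumors. Each tissue gave 1 library labelled Pdcd1fl/fl and 1 labelled Pdcd1 cKO, so 6 libraries in all, with no replicate of any tissue and label. Pdcd1 encodes PD-1, an inhibitory receptor of T cells. The cKO mice carried the floxed Pdcd1 allele together with an E8I CD8-Cre transgene, and the Pdcd1fl/fl controls carried the same allele without Cre. E8I is an enhancer of Cd8a that acts once a thymocyte has been positively selected, so cells at earlier stages were not targeted. The mice were on a C57BL/6 background and older than 8 weeks. Every thymus or spleen library came from 1 mouse at baseline, whereas each tumor library pooled 3 mice on day 12 after injection of B16-OVA, a melanoma line that expresses ovalbumin. Thymic and splenic cells were enriched by depletion of other cells. Tumors were digested for 45 minutes at 37 °C before dead cells were removed and CD8+ cells were taken up on beads.

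Total depth was 6389966 UMIs in the Pdcd1fl/fl-labelled thymus library and 19304377 UMIs in its cKO counterpart. The spleen libraries held 5935926 and 8964626 UMIs, and the tumor libraries held 9401747 and 7924590 UMIs, again with Pdcd1fl/fl first. The filter (500 genes or more, 1000 UMIs or more, mitochondrial UMIs up to 20%) kept 1067 of 1067 and 2635 of 2674 thymus barcodes. It kept 1478 of 6929 and 4928 of 4963 spleen barcodes, so the spleen library labelled Pdcd1fl/fl stood apart in the number left out. In the tumors it kept 456 of 457 and 561 of 561 barcodes. Cells with CD8 RNA, meaning at least 1 UMI of Cd8a or Cd8b1, numbered 589 and 1753 (thymus), 863 and 3885 (spleen), and 344 and 512 (tumor). The median of these cells was 4353 and 5486 UMIs for thymus, 1374 and 1686 for spleen, and 13497 and 9580 for tumor. After the filter no barcode was shared between any 2 libraries, and genes of the sex chromosomes, read as a check, set 0 libraries apart. Levels are UMIs summed over the cells with CD8 RNA of a library and scaled to a total of 1000000 (CPM), with exact Poisson 95% intervals. All intervals cover counting error only and hold no variation between mice.

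Pdcd1 itself was read as a check of the labels. In the thymus it stood at 2.46 CPM (9 UMIs) in the Pdcd1fl/fl-labelled library and at 9.16 CPM (116 UMIs) in the cKO-labelled library. The spleen libraries had 0.724 CPM (1 UMI) and 12.2 CPM (89 UMIs), and the tumor libraries 105 CPM (702 UMIs) and 113 CPM (799 UMIs). The level was thus higher under the cKO label in thymus and spleen, against the label, and the interval of the tumor ratio included 0 (log2 0.10, -0.05 to 0.25). Without the tumor cells that also carried RNA of another lineage, described below, it was lower under the cKO label, at 186 CPM (699 UMIs) and 153 CPM (793 UMIs), a log2 ratio of -0.28 (-0.42 to -0.13). The direction thus differed between tissues, and in the tumors it depended on the cells kept. The files give no read positions and the floxed exons were not stated, so UMIs from the end of the transcript may lie outside the deleted sequence and would then check nothing. Libraries are therefore named by their labels throughout, and every direction between labels is a direction between labelled libraries.

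The tumor libraries also stood apart in what the cells with CD8 RNA held. Of these cells, 65 of 344 and 53 of 512 also carried RNA of another lineage (at least 5 UMIs and 5 per 1000 UMIs of a marker list), with 63 and 37 in the melanoma set and 2 and 15 in the myeloid set. The thymus libraries had 0 such cells and the spleen libraries 1 and 24. Cells of other lineages in the tumors had a median of 1 CD8 UMI, against 9 in the remaining tumor cells, and median depths of 42137 and 30867 UMIs against 11109 and 9177. All 6 melanoma genes (Pmel, Mlana, Dct, Tyrp1, Tyr and Sox10) were detected in both tumor libraries, at a summed 6974 and 3968 CPM, with Dct the most abundant in the first (2609.9 CPM) and Pmel in the second (1410.3 CPM). In thymus the same list summed to 5.47 CPM with Pmel, Tyrp1 and Sox10 at 0, and to 4.42 CPM with Tyrp1 and Sox10 at 0. In spleen it summed to 2.17 CPM with Pmel, Dct, Tyrp1 and Sox10 at 0, and to 3.14 CPM with Tyrp1 at 0, and Tyr led in all 4 of these libraries. Whether these barcodes held more than 1 cell, or were melanoma cells with stray CD8 UMIs, was not determined. The part of the melanoma genes in any result was not tested. Tumor levels and the comparisons between labels, between tissues and inside libraries were also computed without these cells.

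As background, calcium released after receptor engagement activates calcineurin, which lets NFAT proteins such as Nfatc1 enter the nucleus. NFAT drives Nr4a and Tox genes, which hold T cells in a dysfunctional state when antigen persists, while NFAT with AP-1 factors drives effector genes. In the thymus the same factors read the strength of selecting signals, with Tox needed for CD4 lineage development and Nr4a1 a widely used reporter of receptor signaling.

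Tox, an HMG-box factor needed for the persistence of exhausted T cells, had its highest levels in the thymus. It stood at 103 CPM (interval 93.0 to 114) and 147 CPM (141 to 154) in the thymus libraries labelled Pdcd1fl/fl and Pdcd1 cKO. The spleen libraries had 52.1 CPM (40.8 to 65.7) and 92.8 CPM (86.0 to 100.1), and the tumor libraries 24.0 CPM (20.4 to 28.0) and 34.2 CPM (up to 38.8). Both thymus libraries thus lay above both spleen libraries and these above both tumor libraries, although the step from the cKO spleen to the Pdcd1fl/fl thymus was within counting error (log2 0.15, -0.03 to 0.34). Without cells of other lineages the tumor levels were 39.0 and 46.0 CPM, closer to the Pdcd1fl/fl spleen library at 52.2 CPM. Tox lies on the minus strand of chr4:6686353-6991644 (ENSMUSG00000041272, GRCm39). The share of cells with at least 1 Tox UMI was 32.8% and 31.4% in the tumors, 35.3% and 49.2% in thymus, and 5.91% and 12.2% in spleen. After each cell was thinned to 1000 UMIs the tumor shares were 2.91% and 4.30%, the thymus shares 12.9% and 14.4%, and the spleen shares 4.06% and 7.80%. Tumor cells in the melanoma set had a Tox UMI in 17.4% and 15.5% of cells unthinned, and in 0.725% and 0% thinned. Of the 65 and 53 tumor cells with CD8 and other-lineage RNA, at medians of 42137 and 30867 UMIs, 18.5% and 7.55% held a Tox UMI, and 0% in both libraries after thinning. Tox2, its close relative (ENSMUSG00000074607, chr2:163045021-163166191, plus strand), was near the limit of detection. It had 3 and 30 UMIs in thymus, 0 and 11 in spleen and 6 in each tumor library. The floor of 3 counts for the 0 was 2.17 CPM, and its upper Poisson limit 2.67 CPM, both above the level of the cKO spleen. No difference was therefore detectable there, and no neighbours in the order of the 6 libraries differed beyond counting error.

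Nr4a1, an orphan nuclear receptor induced within minutes of receptor engagement, stood out in 1 library. Its level was 87.6 CPM (320 UMIs) and 75.8 CPM (960 UMIs) in thymus, 135 CPM (187 UMIs) and 453 CPM (3315 UMIs) in spleen, and 109 CPM (727 UMIs) and 90.4 CPM (640 UMIs) in tumors. The spleen library labelled Pdcd1 cKO was far above the rest, and the other 5 libraries lay between 75.8 and 135 CPM. That range depended on cells of other lineages in the tumors, since the tumor levels without them were 14.1 and 12.6 CPM, below all other libraries. Nr4a2, a paralog, had 36.4 and 48.3 CPM in thymus, 40.6 and 109 CPM in spleen, and 30.6 and 25.3 CPM in tumors. Here too the cKO spleen was the highest, and no other step in the order exceeded counting error. Nr4a3, the third paralog, had 51.7 and 69.9 CPM in thymus, 131 and 144 CPM in spleen, and 82.0 and 38.2 CPM in tumors. Both spleen libraries led for Nr4a3 and did not differ beyond counting error (log2 0.14, -0.09 to 0.37). Tumor levels without cells of other lineages were 30.3 and 15.9 CPM for Nr4a3, and 31.9 and 22.0 CPM for Nr4a2. The genes lie at chr15:101151980-101172681 (Nr4a1, ENSMUSG00000023034, plus strand), chr2:56996842-57014331 (Nr4a2, ENSMUSG00000026826, minus strand) and chr4:48045153-48086447 (Nr4a3, ENSMUSG00000028341, plus strand).

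Nfatc1, one of the NFAT members that calcineurin activates and one that also amplifies its own transcription in lymphocytes, had 29.0 and 46.1 CPM in thymus, 43.5 and 69.1 CPM in spleen, and 11.7 and 28.0 CPM in tumors. In each tissue it was the higher in the cKO-labelled library. The Pdcd1fl/fl tumor library was the lowest, and the cKO tumor library did not differ from the Pdcd1fl/fl thymus beyond counting error. Batf, a partner of Irf4 and Jun proteins on AP-1 and composite sites, had 37.2 and 42.2 CPM in thymus, 46.4 and 69.2 CPM in spleen, and 57.1 and 78.4 CPM in tumors. Its order began with thymus and ended with the cKO tumor, unlike that of Tox, with spleen and tumor overlapping, and the 4 lowest libraries formed a series in which no step exceeded counting error. The overlap was not seen without cells of other lineages, where Batf had 78.3 and 94.1 CPM in tumors and 46.4 and 69.5 CPM in spleen. Nfatc1 then had 18.9 and 30.3 CPM in tumors. Irf4, which scales with receptor signal strength, had 4.38 and 6.79 CPM in thymus, 9.41 and 10.2 CPM in spleen, and 0.450 and 2.69 CPM in tumors. The tumor libraries were the lowest for Irf4, at 3 and 19 UMIs. The step from the cKO tumor to the Pdcd1fl/fl thymus was within counting error (log2 0.71, -0.35 to 1.74). Prdm1, which encodes the repressor Blimp-1 of terminal effector cells, had 1.92 and 7.66 CPM in thymus, 5.07 and 20.9 CPM in spleen, and 5.85 and 8.34 CPM in tumors. Only the cKO spleen differed from its neighbour in the order for Prdm1 beyond counting error. These genes lie at chr18:80649266-80756295 (Nfatc1, ENSMUSG00000033016, minus strand), chr12:85733423-85755861 (Batf, ENSMUSG00000034266, plus strand), chr13:30933209-30950959 (Irf4, ENSMUSG00000021356, plus strand) and chr10:44313171-44404497 (Prdm1, ENSMUSG00000038151, minus strand).

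**Figure D1:**
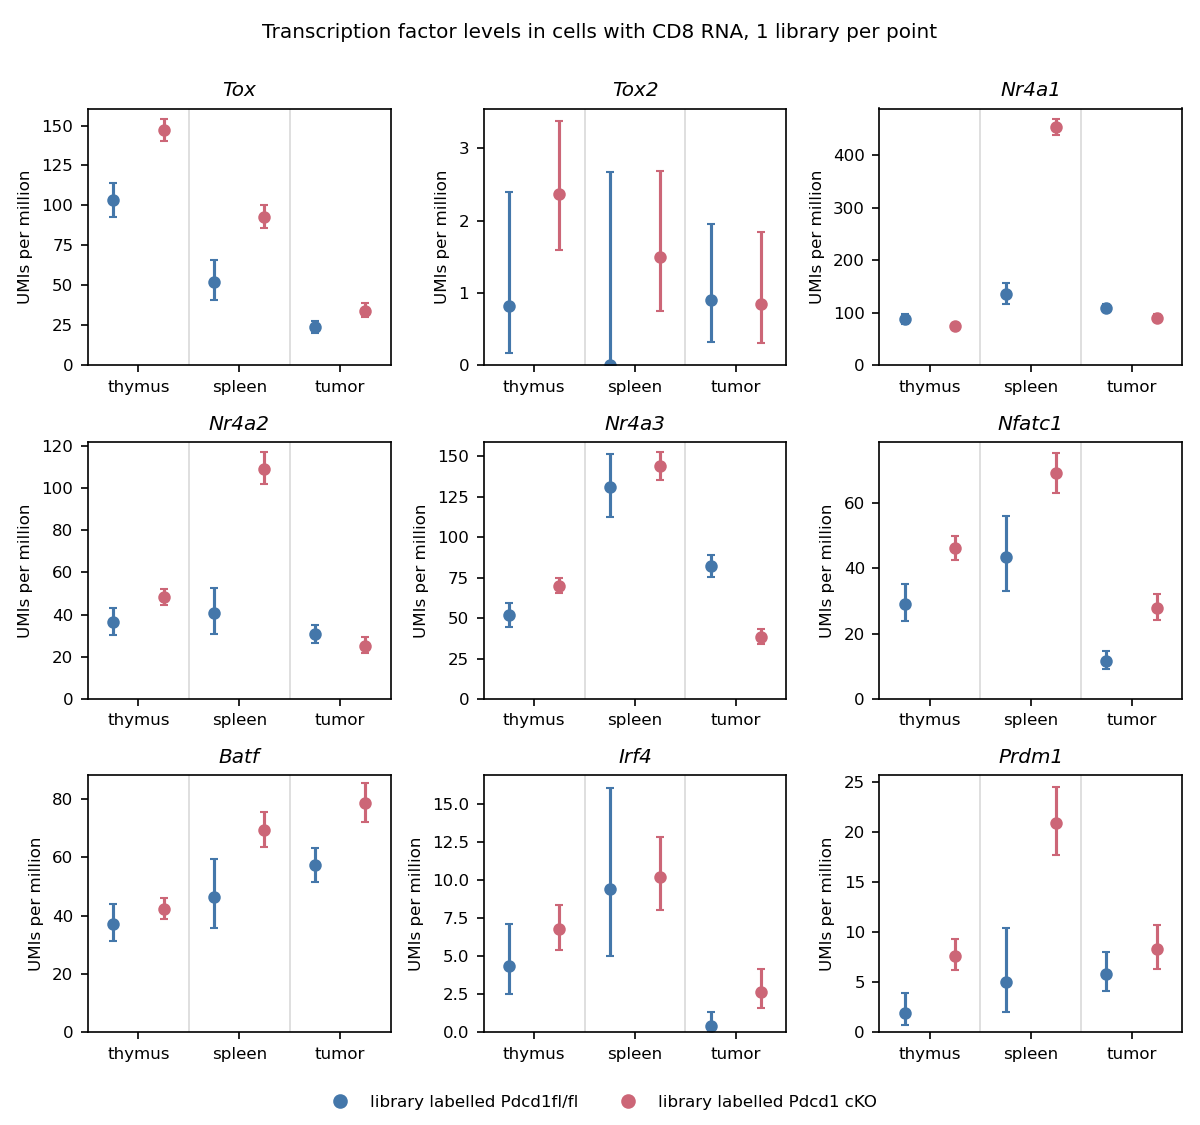
CPM of the 9 transcription factors in cells with CD8 RNA, with 1 point per library and bars for the exact Poisson 95% interval. Tox is highest in thymus and lowest in tumor, Batf is highest in the tumor library labelled Pdcd1 cKO at 78.4 CPM, and Nr4a1 reaches 453 CPM in the cKO-labelled spleen library.

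The sharpest contrast among the members lay inside the tumor libraries. Of the Nr4a1 UMIs in tumor cells with CD8 RNA, 674 of 727 in the Pdcd1fl/fl-labelled library and 575 of 640 in the cKO-labelled library came from the cells with other-lineage RNA, 92.7% and 89.8%. Those cells held 43.5% and 26.9% of all UMIs, so Nr4a1 was concentrated there beyond their depth. For Nr4a3 the corresponding counts were 433 of 547 and 188 of 270 UMIs. Nr4a2 was split more evenly, with 84 of 204 and 65 of 179 UMIs. Tox ran the other way, with 13 of 160 and 4 of 242 UMIs in those cells, as did Batf with 86 of 381 and 68 of 555. Pdcd1, for comparison, had 3 of 702 and 6 of 799 UMIs there. In levels, Nr4a1 was 232 and 302 CPM in the tumor cells with other-lineage RNA and 14.1 and 12.6 CPM in the remaining cells, a log2 ratio of 4.05 and 4.59. Nr4a3 was 149 and 98.8 CPM against 30.3 and 15.9 CPM. Batf was 29.6 and 35.7 CPM against 78.3 and 94.1 CPM, and Tox 4.48 and 2.10 CPM against 39.0 and 46.0 CPM. All cells in the melanoma set, with or without CD8 RNA, had Nr4a1 at 211 and 315 CPM and Tox at 4.79 and 3.94 CPM. Fos, an immediate early gene read beside them, followed Nr4a1 (309.5 and 230.2 CPM against 28.4 and 9.28 CPM).

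**Figure D2:**
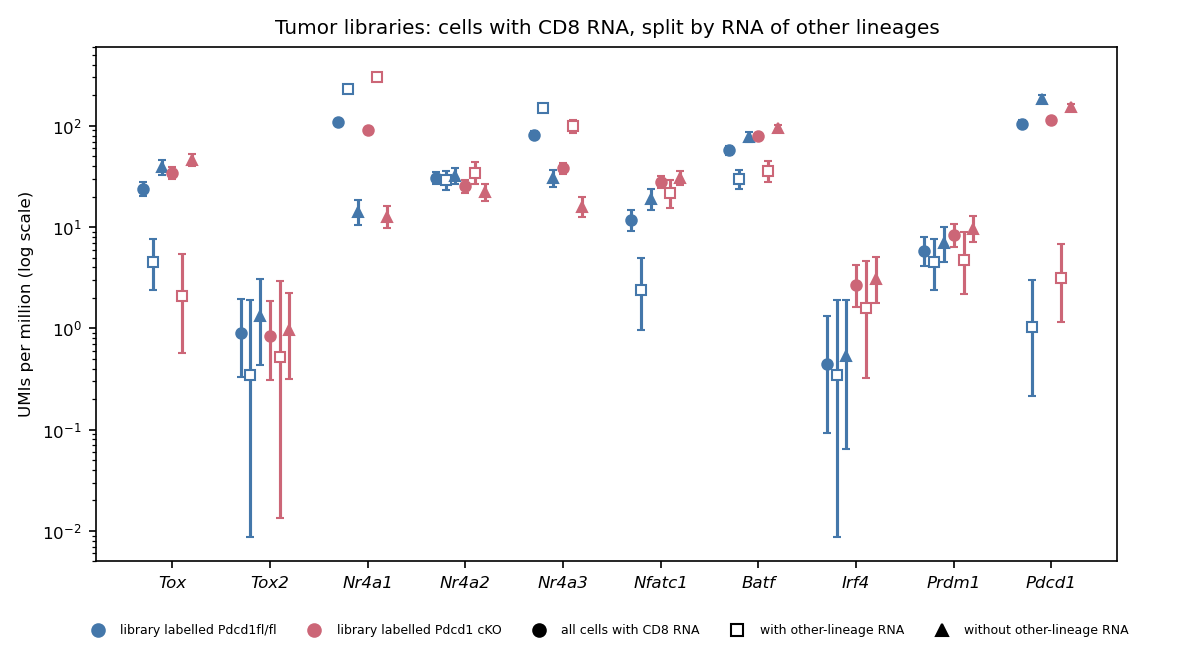
CPM on a log scale in the tumor libraries, with circles for all cells with CD8 RNA, open squares for those with other-lineage RNA and triangles for those without it; bars are exact Poisson 95% intervals. Nr4a1 lies at 232 and 302 CPM in the squares and at 14.1 and 12.6 CPM in the triangles, and Tox and Pdcd1 lie the other way round.

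Do the factors differ between the labelled libraries of a tissue? Each tissue had 1 library a label, so no test within a tissue was possible, and a label effect shared by the 3 tissues was not tested. Genes past 2-fold among those with at least 20 UMIs over the pair were counted. In the thymus 2 of 9 members were past 2-fold higher in the cKO-labelled library, where 6.46% of 13137 genes were, and 0 were past 2-fold lower, where 6.56% of genes were. The higher members were Prdm1, from 7 to 97 UMIs (log2 ratio 2.00, 0.90 to 3.35), and Tox2, from 3 to 30 UMIs (1.53, -0.16 to 3.89). Tox was 0.51 higher on the log2 scale (0.35 to 0.68), Nfatc1 0.67 (0.37 to 0.98) and Nr4a3 0.43 (0.21 to 0.67), whereas Nr4a1 was -0.21 (-0.39 to -0.02). The members' median was 0.51, beside -0.15 for all genes. In thymic cells without CD8 RNA the 7 members with enough UMIs had a median of 0.73, beside 0.08 for all genes. They ran from Prdm1 at 0.26 to Nr4a2 at 1.07. Tox stood there at 69.5 and 124 CPM, and Nr4a3 at 49.7 and 102 CPM. The difference between labels was thus not confined to thymic cells with CD8 RNA, and its cause was not tested. Cycling cells made up 44.7% of the cells with CD8 RNA in the Pdcd1fl/fl-labelled library and 16.1% in the other, with the immature thymocyte set at 10.9% and 4.28%. Cells in neither set are called resting mature, a name that follows the sets alone. Without both sets 3 of 3 immature thymocyte genes (median -6.49) and 8 of 10 cycling genes (median -3.44) were still lower in spleen than in thymus. Among these resting mature cells Tox was 133 and 174 CPM, Prdm1 0.685 CPM (1 UMI) and 9.57 CPM (82 UMIs), and Nr4a1 101 and 68.8 CPM. Within them, cells of the effector or memory set had Tox at 78.1 CPM in the Pdcd1fl/fl-labelled library, below the 177 CPM of the remaining resting mature cells. In the cKO-labelled library that set had Tox at 239.9 CPM, above the 145 CPM of the remaining cells, so the direction was opposite. The difference between the libraries was not tested. Many thymic cells lay near the cut of this set, 544 of 1067 and 1056 of 2635 filtered cells. In spleen the split gave Tox at 43.1 against 109 CPM and 94.7 against 53.7 CPM, the latter within counting error. In the Pdcd1fl/fl-labelled tumor library it gave 42.7 against 5.60 CPM, with cells of other lineages kept.

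In the spleen 3 of 8 members with enough UMIs were past 2-fold higher in the cKO-labelled library, where 10.8% of 11507 genes were, and 0 were past 2-fold lower, where 2.89% of genes were. Nr4a1 differed by a log2 ratio of 1.74 (1.53 to 1.96), Nr4a2 by 1.43 (1.04 to 1.85) and Prdm1 by 2.04 (0.97 to 3.38). Tox was 0.83 higher (0.48 to 1.20), Nfatc1 0.67 and Batf 0.58. Nr4a3 at 0.14 and Irf4 at 0.12 turned to -0.04 and -0.05 when scaled by the median of ratios. The members' median was 0.75, beside 0.18 for all genes. Genes induced by tissue dissociation and stress were also higher: 12 of 16 were past 2-fold higher under the cKO label (median 1.21), led by Hspa1a at 4.66 and with Egr1 the lowest at 0.38. The list summed to 2596 CPM in the Pdcd1fl/fl-labelled library and 7157 CPM in the other, with Junb its most abundant gene in both and no gene at 0. The part of these genes in the Nr4a1 and Nr4a2 result was not tested. Nr4a1 was as high in splenic cells without CD8 RNA, at 143 and 433 CPM. The effector or memory set held 84.8% of the cells with CD8 RNA in the Pdcd1fl/fl-labelled library and 97.4% in the other.

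In the tumors 2 of 8 members with enough UMIs were past 2-fold higher in the cKO-labelled library, where 7.24% of 13270 genes were, and 1 was past 2-fold lower, where 9.99% of genes were. Irf4, from 3 to 19 UMIs, had a log2 ratio of 2.58 (0.81 to 4.98), and Nfatc1 1.26 (0.87 to 1.66). Nr4a3 was the lower one at -1.10 (-1.32 to -0.89). Tox was 0.51 higher (0.22 to 0.81) and Batf 0.46, beside a members' median of 0.48 and a median of -0.15 for all genes. Cycling cells made up 21.8% of the cells with CD8 RNA in the Pdcd1fl/fl-labelled library and 30.3% in the other. The effector or memory set held 66.3% and 90.6% of them. Without cells of other lineages 0 of 7 members were past 2-fold in either direction, where 8.80% of 10803 genes were higher and 5.40% lower, with Nfatc1 at 0.69 (0.27 to 1.11), Nr4a3 at -0.93 (-1.36 to -0.51) and Tox at 0.24 (-0.07 to 0.54), an interval that included 0. Irf4 then had 2 and 16 UMIs, under the minimum of 20, while its log2 ratio was as large as before at 2.54 (0.45 to 5.71).

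**Figure D3:**
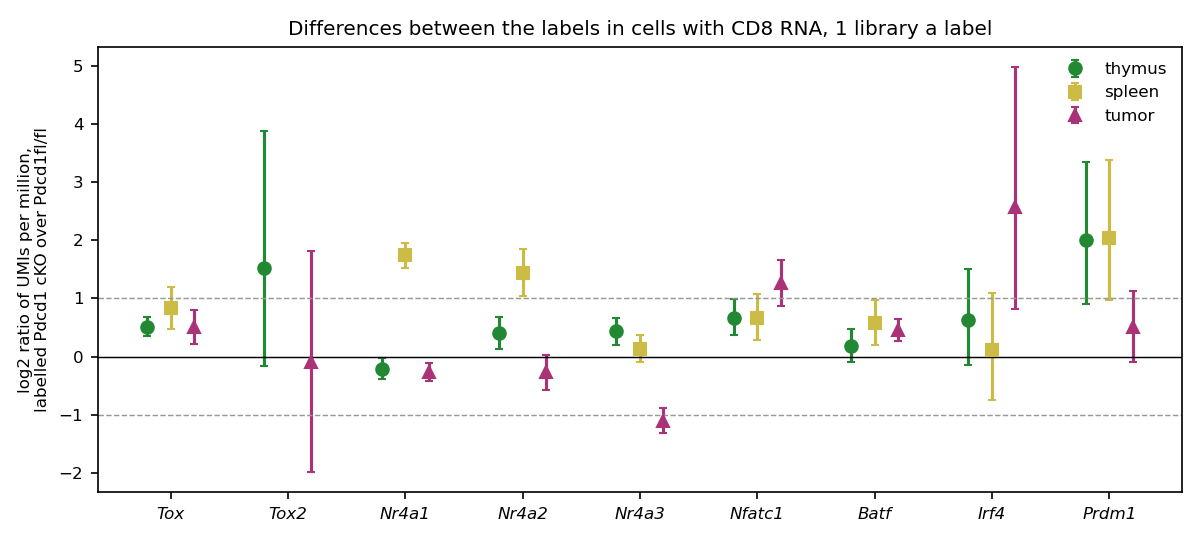
Log2 ratio of CPM, cKO label over Pdcd1fl/fl label, for each member and tissue, with exact 95% intervals for counting error; dashed lines mark 2-fold, and Tox2 in the spleen, with 0 UMIs in 1 library, is not drawn. Nr4a1 is at 1.74 in the spleen and at -0.21 and -0.27 in thymus and tumor, and Nr4a3 is at -1.10 in the tumor.

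Genes around the members were read from lists, beside the shares of all genes past 2-fold under the cKO label: 6.46% higher and 6.56% lower in thymus, 10.8% and 2.89% in spleen, and 7.24% and 9.99% in tumors. In lists of 9 to 16 genes a count of 1 or 2 can lie near those shares. The lists were chosen with earlier results of these data known, and they overlap. Egr1 stood in the receptor signal strength and dissociation lists. Jun and Junb stood in the dissociation list and among the partners of Batf and Irf4. Of inhibitory receptors, 6 of 10 were past 2-fold higher under the cKO label in the thymus (median 1.35, Lag3 highest at 2.98, Havcr2 lowest at -0.52), 5 of 10 in the spleen (median 1.18, Pdcd1 highest at 4.07, Entpd1 lowest at 0.10) and 2 of 10 in the tumors (median 0.47, Cd101 highest at 1.84, Tigit lowest at -0.17). NFAT and calcineurin genes had 0 past 2-fold in either direction among 13 in the thymus (median -0.07) and 12 in the spleen (median 0.17), and 0 higher and 2 lower among 15 in the tumors (median -0.42, Rcan1 lowest at -1.56). Of the partners of Batf and Irf4, 2 of 11 were higher in the thymus (median 0.34, Maf highest at 1.67), 2 of 11 in the spleen (median -0.04, Maf at 2.89), and 2 higher and 1 lower of 12 in the tumors (median -0.35, Batf3 at 1.35, Jun at -1.13). Genes that follow receptor signal strength had 1 higher and 1 lower of 15 in the thymus (median 0.50, Cd69 at 1.10, Egr1 at -1.10), 3 higher of 16 in the spleen (median 0.49, Tagap at 1.29) and 1 lower of 14 in the tumors (median -0.002, Egr1 at -1.06). Lineage selection genes had 1 of 9 higher in the thymus (median 0.02, Runx3 at 1.30), 0 of 9 in the spleen (median 0.13) and 1 of 10 in the tumors (median 0.15, Bcl11b at 1.45). The dissociation list had 0 higher and 1 lower of 16 in the thymus (median 0.04), and 1 higher and 4 lower of 16 in the tumors (median -0.41, Hspa1a at 1.70, Fos at -1.13). The tumor lists read otherwise without cells of other lineages, beside 8.80% of all genes higher, 5.40% lower and a median of 0.065. NFAT and calcineurin genes then had 0 past 2-fold in either direction of 12 (median 0.068), but Rcan1 (6 and 3 UMIs, log2 ratio -1.46) and the other gene counted lower above were then under the minimum of 20 UMIs. Inhibitory receptors had 3 higher of 10 (median 0.14), partners of Batf and Irf4 0 higher and 2 lower of 10 (median -0.29), and receptor signal strength genes 1 lower of 13 (median -0.28). Lineage selection genes had 1 higher and 1 lower of 9 (median 0.17), and dissociation genes 0 higher and 3 lower of 16 (median -0.31).

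Which of the factors differ between tissues was tested with edgeR over the 6 libraries, with label as a term, 2 residual degrees of freedom and an adjusted p under 0.05; the contrasts with thymus and with tumor share the spleen libraries. Against thymus, 3 of 9 members were higher in spleen, where 6.31% of 14300 genes were, and 0 were lower, where 8.57% of genes were. Nr4a1 rose by 1.83 on the log2 scale (SE 0.389, edgeR adjusted p = 0.00288), with both spleen libraries above both thymus libraries. Nr4a3 rose by 1.25 (SE 0.341, edgeR adjusted p = 0.0167), also in 2 of 2 spleen libraries. For Prdm1 the change was 1.49 (SE 0.463, edgeR adjusted p = 0.0356), with the levels of the tissues overlapping. Tox at -0.71 (SE 0.284, edgeR adjusted p = 0.102) and Nr4a2 at 0.87 (SE 0.324, edgeR adjusted p = 0.0787) did not pass, nor did Nfatc1 (0.68), Batf (0.63), Irf4 (0.89) and Tox2 (-0.75). The members' median was 0.87, beside -0.03 for all genes. Leaving out the cKO-labelled spleen library ended all 3 calls, with Nr4a1 at 0.81, Nr4a3 at 1.09 and Prdm1 at 0.98, and without the Pdcd1fl/fl-labelled thymus library Nr4a3 (0.77) and Prdm1 (1.18) were not called. Prdm1 was also not called without the thymus library labelled Pdcd1 cKO (2.16). Genes of dissociation and stress were called as well, with 13 of 16 higher in spleen (median 2.03, Hspa1b highest at 4.75, Hsp90aa1 lowest at -0.72) and summed levels of 1640.3 and 1843 CPM in thymus against 2596 and 7157 CPM in spleen, Hsp90aa1 the most abundant in thymus and Junb in spleen; their part in the Nr4a result was not tested. Genes of receptor signal strength had 10 higher and 1 lower of 16 (median 1.46, Nfkbid highest at 2.87, Spry1 lowest at -1.44). NFAT and calcineurin genes had 4 higher and 1 lower of 14 (median 0.04), partners of Batf and Irf4 4 higher and 1 lower of 11 (median 0.49), inhibitory receptors 1 and 1 of 10 (median 0.70), and lineage selection genes 0 and 2 of 10 (median -0.11). Markers of cell state differed by more than the members. Cycling genes were lower in spleen in 10 of 10 cases (median -4.02) and immature thymocyte genes in 3 of 3 (median -6.88), while 5 of 7 effector or memory genes (median 2.23) and 4 of 7 B or plasma cell genes (median 6.67) were higher. Of the effector or memory and the B or plasma cell genes, only Gzma, an effector or memory gene at -3.78, was called lower. Without cells in the cycling and immature sets 792 genes were called in place of 2127. Even so, 8 of 10 cycling genes (median -3.44) and 3 of 3 immature thymocyte genes (median -6.49) were still lower in that fit. Nr4a1 (1.82) and Nr4a3 (1.18) were called in that fit, Prdm1 (1.26) was not, and Tox (-0.97, edgeR adjusted p = 0.0406) was called lower. The part of cell state in the members' values was not tested further.

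Between tumor and spleen, 0 of 9 members were higher in tumor, where 26.5% of genes were, and 6 were lower, where 22.5% of genes were. Irf4 fell by 2.31 on the log2 scale (SE 0.603, edgeR adjusted p = 0.00365) and Nfatc1 fell by 1.17 (SE 0.304, edgeR adjusted p = 0.00354), in both cases with 2 of 2 tumor libraries below both spleen libraries. Tox fell by 0.90 (SE 0.290, edgeR adjusted p = 0.0147) and Nr4a1 by 1.04 (SE 0.382, edgeR adjusted p = 0.0304), again in 2 of 2 libraries. Nr4a2 fell by 0.93 (SE 0.332, edgeR adjusted p = 0.0256) and Nr4a3 by 0.86 (SE 0.342, edgeR adjusted p = 0.0451), also without overlap. Batf at 0.62 (SE 0.282, edgeR adjusted p = 0.0748), Prdm1 at -0.28 and Tox2 at 0.45 did not pass. The members' median was -0.90, beside 0.15 for all genes. Pdcd1, for reference, rose by 4.51 (SE 0.471, edgeR adjusted p = 3.43e-07) in 2 of 2 tumor libraries. All 6 melanoma genes were higher in tumor, as were 5 of 6 myeloid genes (median 8.55) and 9 of 10 cycling genes (median 3.27), while 4 of 7 B or plasma cell genes were lower and 1 was higher (median -1.06). The fit was repeated without cells of other lineages, where 5 of 5 melanoma genes (median 8.13) and 10 of 10 cycling genes (median 3.89) were still higher. Nr4a1 then stood at -3.63 and Nr4a3 at -1.89, both still called lower with Irf4 at -1.68, while Tox at -0.02, Nr4a2 at -0.67 and Nfatc1 at -0.48 were no longer called and Batf at 1.29 was called higher. Without cells in the cycling and immature sets Nr4a3 (-0.72) was not called and the other 5 calls held, with 9 of 10 cycling genes still higher. Without the cKO-labelled spleen library the calls of Tox (-0.84), Nr4a1 (-0.05), Nr4a2 (-0.29) and Nr4a3 (-0.72) ended, as they did without the tumor library labelled Pdcd1 cKO (-1.003, -0.68, -0.52 and -0.40, in the same order). Without the tumor library labelled Pdcd1fl/fl, Tox (-0.90) and Nfatc1 (-0.83) were not called. Of the lists, inhibitory receptors had 8 higher and 0 lower of 10 in tumor (median 1.503), dissociation genes 0 and 12 of 16 (median -2.26), and receptor signal strength genes 2 and 11 of 16 (median -2.01, Tnfrsf9 highest at 5.38, Cd69 lowest at -5.64). NFAT and calcineurin genes had 3 higher and 9 lower of 14 (median -1.16), partners of Batf and Irf4 2 and 8 of 11 (median -1.13), and lineage selection genes 0 and 8 of 10 (median -2.52). The medians of these lists without cells of other lineages were 2.18, -2.77, -1.53, -1.22, -1.54 and -2.46, in the same order. Dissociation genes summed to 1426 and 860.0 CPM in tumors, with Hsp90aa1 the most abundant and no gene at 0, and to 762 and 498 CPM without cells of other lineages. Their part in the fall of the Nr4a genes was not tested.

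Inside single libraries, which share 1 preparation, cells with and without a Pdcd1 UMI were compared. Cells with CD8 RNA and a Pdcd1 UMI had Tox at 456 CPM against 132 CPM in those without in the thymus library labelled Pdcd1 cKO, and at 329 against 86.9 CPM in the spleen library of that label. In the tumors the values were 41.8 against 8.66 CPM (Pdcd1fl/fl) and 45.8 against 20.1 CPM (cKO). Tox was thus higher in 4 of 4 libraries with at least 50 cells on each side, by a log2 ratio of 1.19 to 2.27. The thymus and spleen libraries labelled Pdcd1fl/fl had 9 and 1 cells with a Pdcd1 UMI and were not compared. In the cKO-labelled thymus library, 65 of the 87 cells with a Pdcd1 UMI were resting mature cells of the effector or memory set. That group held 483 of its 1753 cells with CD8 RNA, and the 2 splits were not separated. In the tumors much of the Tox difference came with the cells of other lineages, which hold little Tox and Pdcd1. Without them the tumor ratios were 0.85 (0.16 to 1.61; Pdcd1fl/fl) and 0.25 (-0.18 to 0.70; cKO), the latter within counting error. Batf was higher in 4 of 4 (0.86 to 1.38), Nfatc1 in 4 of 4 (0.12 to 1.38, 3 of them beyond counting error) and Prdm1 in 3 of 4 (-0.24 to 2.25). Nr4a1 was lower in 4 of 4 (-3.48 to -0.18), beyond counting error in the 2 tumor libraries, where the cells with other-lineage RNA held 3 and 6 Pdcd1 UMIs. Nr4a3 was higher in thymus and spleen (0.55 and 0.61) and lower in the tumors (-1.91 and -2.19). Nr4a2 was higher in thymus (192 against 41.4 CPM, log2 2.22) and spleen (268 against 105 CPM, log2 1.35), both beyond counting error. In the tumors Nr4a2 was within it (0.27 and -0.17), also without cells of other lineages (0.26 and 0.67). Without cells of other lineages the tumor ratios, Pdcd1fl/fl first, were 0.44 and 0.45 for Batf, both beyond counting error, and -0.26 and -0.96 for Nr4a3, the second beyond it. Those of Nfatc1 (-0.15 and -0.17), Prdm1 (1.77 and -0.85) and Nr4a1 (-0.47 and -0.35) were then all within counting error. In thymus, Tox was lower in CD8-RNA cells of the immature set, at 71.4 against 108 CPM and 79.7 against 151 CPM. It was also lower in cycling thymic cells with CD8 RNA (82.1 against 130 CPM and 89.7 against 171 CPM), whereas in cycling tumor cells it was 32.8 against 21.0 CPM and 40.4 against 31.3 CPM, the latter within counting error. After cells of other lineages were left out it was 43.8 against 36.8 CPM and 45.6 against 46.3 CPM in cycling tumor cells, both within counting error. Nr4a3 was lower in cycling cells in 4 of 4 libraries (-0.99 to -0.18), 3 of them beyond counting error. Its tumor ratios without cells of other lineages were -0.24 (-0.88 to 0.37) and -0.84 (-1.63 to -0.11). Thymic cells without CD8 RNA had Irf4 at 0.731 and 0.926 CPM (2 and 6 UMIs), against 4.38 and 6.79 CPM with it, and Tox at 69.5 and 124 CPM. Without CD8 RNA the spleen had Tox at 66.7 and 101 CPM, within counting error of the cells with it. The Pdcd1fl/fl-labelled tumor library, with cells of other lineages kept, had 6.27 CPM without CD8 RNA and 24.0 CPM with it (log2 1.94, 1.21 to 2.75).

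Genes most like each member were taken over 17 pools of cells (library by CD8 RNA by cycling set) among 12790 genes, by Pearson r of log2(CPM + 10); pools of 1 library share its preparation and depth, so r is a description. Tumor pools kept the cells of other lineages, and r was not computed without them. Tox was closest to Camk4 (r = 0.94), Mir142hg and Septin6, and Nr4a1 to Hspa1b (0.93), Tnfsf14 and Tmem37. Nr4a2 was closest to Pja1 (0.91), Trpm4 and Dnah17, and Nr4a3 to Tgoln1 (0.91), Tob2 and Mafg. Nfatc1 had Traf3ip3 (0.93), Prkch and Unc5cl, and Batf had Klre1 (0.95), Klrk1 and Rab19. Irf4, with 249 UMIs in all, had Gm44174 (0.95), Ubxn11 and Ifi214, and Prdm1, with 458 UMIs, had Dapk2 (0.89), Grm5 and 8430436N08Rik. Tox2, at 82 UMIs, was under the minimum of 100. Among the members the highest r were those of Nr4a2 with Irf4 (0.80), Tox with Nfatc1 (0.80) and Nr4a1 with Nr4a2 (0.79), and the lowest that of Tox with Batf (-0.19).

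Promoter windows from 250 bases before to 50 after the start came from a table of RefSeq promoters (GRCm38.p6) that held 7 of the 9 members in 11 windows. The table had no entry for Tox and Nfatc1. Motifs were searched on both strands. The calcineurin-responsive NFAT core GGAAA was found in the windows of Nr4a2, Tox2, Batf and Irf4, and in 61.3% of all 32851 windows. The AP-1 letters TGANTCA were found only in that of Prdm1 among the members' windows (7.81% of all windows), and the full cyclic AMP element TGACGTCA (1.79%) and the Nr4a response element AAAGGTCA (1.51%) in none. After the windows had been read, the half-site TGACG of the cyclic AMP element, part of the full element, was added. It occurred 4 times in each of Nr4a1, Nr4a2 and Nr4a3, while 20.8% of all windows held it at least once and 0.231% at least 4 times. The other members' windows held it at most 1 time. Bases G and C made up 72.3%, 81.7% and 64.7% of the Nr4a1, Nr4a2 and Nr4a3 windows. The shares over all windows were not matched for base content. A match describes letters only. The windows of the 3 Nr4a genes are shown because they held the most TGACG matches among the members; they lie at chr15:101266596-101266895 (Nr4a1, plus strand), chr2:57123954-57124253 (Nr4a2, minus strand) and chr4:48045055-48045354 (Nr4a3, plus strand) of GRCm38.p6, and capitals mark TGACG or its reverse complement CGTCA.
Nr4a1: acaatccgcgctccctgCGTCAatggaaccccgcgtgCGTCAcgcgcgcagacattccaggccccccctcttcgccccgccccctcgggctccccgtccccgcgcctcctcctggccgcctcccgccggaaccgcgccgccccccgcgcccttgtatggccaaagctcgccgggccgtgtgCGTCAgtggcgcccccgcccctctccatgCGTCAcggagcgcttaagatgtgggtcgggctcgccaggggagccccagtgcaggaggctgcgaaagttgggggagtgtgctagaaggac
Nr4a2: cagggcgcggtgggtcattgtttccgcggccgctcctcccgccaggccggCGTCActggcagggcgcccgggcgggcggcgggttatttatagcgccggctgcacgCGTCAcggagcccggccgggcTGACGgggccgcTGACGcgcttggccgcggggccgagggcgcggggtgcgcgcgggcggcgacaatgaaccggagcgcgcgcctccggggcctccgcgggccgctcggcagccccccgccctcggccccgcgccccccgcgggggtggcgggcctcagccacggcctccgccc
Nr4a3: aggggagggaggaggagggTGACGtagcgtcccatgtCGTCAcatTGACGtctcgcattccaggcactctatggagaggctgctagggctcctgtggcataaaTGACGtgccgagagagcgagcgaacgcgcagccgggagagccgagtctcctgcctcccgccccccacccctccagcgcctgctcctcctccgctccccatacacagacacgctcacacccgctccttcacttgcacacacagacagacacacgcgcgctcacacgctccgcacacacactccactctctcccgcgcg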

How the data were processed

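The authors aligned PIPseq v3 reads to GRCm39 and deposited raw UMI counts per barcode for each library; their processing notes name Seurat 4.3.0. The deposited counts were whole numbers without normalization. Tumor genes stood in another order and were aligned by Ensembl identifier, and gene coordinates came from GENCODE vM39. Cells passing the study's filter with at least 1 CD8 UMI were summed per library to CPM. Between labels, log2 ratios had exact conditional binomial 95% intervals. Marker sets needed at least 2 UMIs and 1 per 1000 UMIs, other lineages 5 and 5. Tissues were compared with edgeR 4.0.16 (quasi-likelihood, TMM, filterByExpr, Benjamini-Hochberg) in R 4.3.3, with the alternative DESeq2 1.42.0; the script was tested on simulated data. Other work used Python 3.11.15 and scipy 1.17.1. Genes named are the 9 members, Pdcd1, the extremes of each list and the 3 genes most like each member; the TGACG half-site was added after the windows were seen. No doublet caller was run: cells with CD8 and other-lineage RNA were left out as an alternative. Other alternatives changed the CD8 rule, filter, scaling, UMI minimum, cycling cells and libraries. Members and lists were chosen with earlier results of these data known. Requiring T cell RNA as well, and leaving out other lineages in contrasts inside tumor libraries, were added after the data had been seen.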

Additional observations from a re-analysis of the deposited data

Results flagged for a closer look

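Nr4a1 was far higher under the cKO label in the spleen and slightly lower in the thymus and tumors. Its log2 ratio was 1.74 in the spleen and -0.21 in the thymus, so the spleen ratio was the larger by 1.95, and the tumor ratio of -0.27 was below that of the spleen by a difference of -2.01. Nr4a3 had a ratio of 0.43 in the thymus and of -1.10 in the tumors, a difference of -1.54. The direction of Nr4a1 outside the spleen depended on the setting. In the thymus it was -0.06 with the median of ratios, -0.0028 with mitochondrial, ribosomal protein and Malat1 UMIs left out of the total, and 0.29 in cells without CD8 RNA. In the tumors it was -0.16 (-0.71 to 0.39) without cells of other lineages, 0.24 with at least 2 CD8 UMIs, and 0.13 without cycling cells. The median of all genes was -0.15 in both thymus and tumor, near the Nr4a1 values there. All of these compare 1 library a label in each tissue, and the differences between tissues were not tested.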

How the results depend on the processing

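Between labels, 273 of 314 values under another setting lay within the counting interval, or within 1.5 times for counts, 40 moved and 1 past 2-fold reversed: Tox2 in the thymus was -1.05 in cells without CD8 RNA. That value came from 7 and 8 UMIs, together under the minimum of 20. The sign changed in 14 of 267 log2 ratios, of 7 pairs of gene and tissue. Besides Tox2 these were Nr4a1 in thymus (0.29 without CD8 RNA), Nr4a1 in tumor (0.24 with at least 2 CD8 UMIs, 0.20 without CD8 RNA, 0.13 without cycling cells), Nr4a2 in tumor (0.27 without CD8 RNA), Tox2 in tumor (0.24 and 0.069), Nr4a3 in spleen (-0.04) and Irf4 in spleen (5 times, -0.27 to -0.01). Inside tumor libraries, pools without other lineages kept 23 of 35 contrasts within the interval and moved 10. A further 2 that had been past 2-fold reversed: Nfatc1 by Pdcd1 UMI was -0.15 (Pdcd1fl/fl) and Nr4a1 by cycling 0.29 (cKO). Ratios under 2-fold also changed sign, among them Nr4a1 by cycling in the Pdcd1fl/fl library (0.47 to -0.65). By Pdcd1 UMI in the cKO library, Nfatc1 went from 0.12 to -0.17 and Nr4a2 from -0.17 to 0.67. The thymus count of 2 members past 2-fold ran from 1 (all filtered cells, or a minimum of 100 UMIs) to 3 (without cycling cells, or as a mean over cells). The tumor count of 3 was 0 with at least 2 CD8 UMIs, 0 without other lineages, 0 with T cell RNA also required, and 1 without cycling cells. Irf4 left these 4 counts through the minimum of 20 UMIs, with a log2 ratio of 1.99, 2.54, 2.51 and 2.86, in that order. The spleen count of 3 ran from 3 to 4. Between tissues, 217 of 271 values kept direction and call, 32 lost the call, 8 gained it, 9 reversed and 5 counts moved. The spleen against thymus count of 3 was 5 in a fit of the 4 libraries alone and ran from 0 (without the cKO-labelled spleen library) to 4 with 1 library left out, being 1 without the Pdcd1fl/fl-labelled thymus library; the lone library of a tissue is then assumed to vary like the others. Over all genes, 2127 of 14300 were called in that contrast, 3007 of 12502 with the 4 libraries alone, 792 without cycling and immature cells, and 1279 to 2855 with 1 library left out. The tumor against spleen count of 6 ran from 4 to 6 over 8 other settings. Over all genes, those settings called from 5794 of 14300 (DESeq2) to 7632 of 15204 (all filtered cells). The count was lower still without the spleen or the tumor library labelled Pdcd1 cKO, where the member calls named above ended. In that contrast Tox2 was -0.96 in all filtered cells and reversed to between -0.18 and -0.09 without 1 Pdcd1fl/fl library of tumor or spleen (-0.18 to 5.34 over all omissions). Prdm1 was 0.25 without other lineages and 0.34 with T cell RNA also required, where Tox was 0.071, and reversed to 0.19 and 0.42 without the spleen or the tumor library labelled Pdcd1 cKO (-0.82 to 0.42 over all omissions). Tox2 between spleen and thymus was 0.24 in all filtered cells. The cause was not tested in any of these. Thinning moved 51 of 54 shares of cells. No paired analysis was possible because each tissue and label had 1 library and no mouse is named as shared. Tox2, Irf4 and Prdm1 are limited by depth.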

Other observations

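Barcodes under the cell filter were numerous in 1 library only. The spleen library labelled Pdcd1fl/fl had 5451 of them at a median of 654 UMIs, and their levels were read beside those of its filtered cells. Nr4a1 stood at 131 CPM (120 to 143) against 138 CPM, Nr4a3 at 127 against 123 CPM, Tox at 49.8 against 57.6 CPM and Batf at 36.6 against 44.6 CPM. Prdm1 was at 10.2 against 5.85 CPM, Nr4a2 at 46.6 against 36.9 CPM, Nfatc1 at 53.6 against 45.5 CPM, Irf4 at 6.73 against 7.65 CPM and Tox2 at 1.35 against 2.25 CPM.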
